A study of Mus musculus with 12 samples.

Results

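The interaction of Bub1 knockout and radiation asks, gene by gene, whether 8 Gy of radiation changed RNA levels by a different amount in Bub1-deficient cells than in their vector control. It was measured in B16F10, a mouse melanoma cell line, over all 12 libraries of the study, which form 4 groups of 3: vector control untreated, vector control after 8-Gy radiation, Bub1KO untreated and Bub1KO after 8-Gy radiation. The knockout was made with CRISPR-Cas9, and the vector control stands for its background at both doses. The labels do not give the guide, the number of knockout clones or the time from irradiation to harvest, and they do not state that a group's 3 libraries represent separate cultures. All p-values therefore measure the spread between these libraries, which may be technical. For each gene the interaction was (Bub1KO 8 Gy minus vector control 8 Gy) minus (Bub1KO untreated minus vector control untreated) on log2(value + 1), where a value is a read count divided by its library's size factor, called a scaled count here. It was tested in 14721 of 55421 genes, those with a value of 10 or more in 3 or more libraries. A negative interaction means that radiation raised the gene less, or lowered it more, in Bub1KO than in vector control. In such bulk libraries, fewer cells with a transcript and less of it per cell cannot be told apart.

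Bub1 is a kinase of the spindle assembly checkpoint, which holds mitosis until chromosomes are attached to the spindle. Ionizing radiation breaks DNA, activates p53 and stops the cell cycle, and in many tumour lines it is followed by a type I interferon programme that starts from RNA or DNA sensed in the cytosol. The integrated stress response is a second programme: kinases such as Eif2ak2, Eif2ak3, Eif2ak4 and Eif2ak1 phosphorylate the initiation factor eIF2, most translation slows, and the transcription factor Atf4 is translated and switches on genes for amino acid synthesis and uptake, aminoacyl-tRNA charging and redox balance, together with the stress factors Ddit3, Atf3, Trib3 and Chac1. Atf4 binds as a dimer with Cebp proteins at a composite element whose core can be written TGATGNAA.

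Library depth ran from 19380726 to 33087366 reads in genes. Irradiated and untreated libraries lay on opposite sides of the leading principal component, to which 60.2% of the variance of log2 values belonged. One library, Bub1KO untreated replicate 1, stood apart from its group by its GC gap. A GC gap is the median deviation of genes in the highest GC quartile minus that in the lowest. It was -0.70 log2 in that library, beside 0.03 and 0.07 in the other untreated Bub1KO libraries. The gap also differed between groups: -0.36 to -0.13 in untreated vector control, 0.16 to 0.34 in irradiated vector control and 0.08 to 0.28 in irradiated Bub1KO. Bub1KO untreated replicate 1 had the lowest quality weight that limma assigned, 0.131, where the other 11 had 0.601 to 3.72. The interaction of each named gene and the calls of each list are therefore given with all 12 libraries and again without that library. The melanocyte markers were present in all 4 groups, with a summed scaled count of 400784 to 417751 in untreated vector control and 557311 to 566252 in untreated Bub1KO. After 8 Gy it was 453900 to 469984 in vector control and 575999 to 600957 in Bub1KO.

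With all 12 libraries, 81 genes were called in the interaction by limma at an adjusted p under 0.05 (Benjamini-Hochberg over all genes tested), 0.550% of those tested. Of these, 20 were higher (0.136%) and 61 lower (0.414%), and 40 of the 81 differed by at least 2-fold. The median interaction over all genes was 0.00, and 1784 genes had an unadjusted p under 0.05. Without Bub1KO untreated replicate 1 the count was 1447 genes (9.83%), 339 higher (2.30%) and 1108 lower (7.53%), and all 81 genes were among them with the same sign. That fit rests on only replicates 2 and 3 for the untreated Bub1KO group. The median standard error of the interaction was 0.176 log2 over 12 libraries and 0.147 without that library. The genes called lower without it were GC-rich, with a median GC content of 56.7% against 49.4% over all genes tested, and that of the 339 higher genes was 48.6%. With the GC trend of each library removed, the same 11 libraries gave 513 higher and 783 lower genes. Among the 81 genes the medians were 50.5% for the lower and 51.9% for the higher ones. The part of GC content in the larger count was not tested.

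The smaller count also moved with the other libraries. Leaving out vector control untreated replicate 2 or 3 gave 46 or 52 genes, vector control 8 Gy replicate 1 or 2 gave 33 or 34, and Bub1KO 8 Gy replicate 1, 2 or 3 gave 42, 39 or 47. Lower genes outnumbered higher ones in each of these fits.

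**Figure D1:**
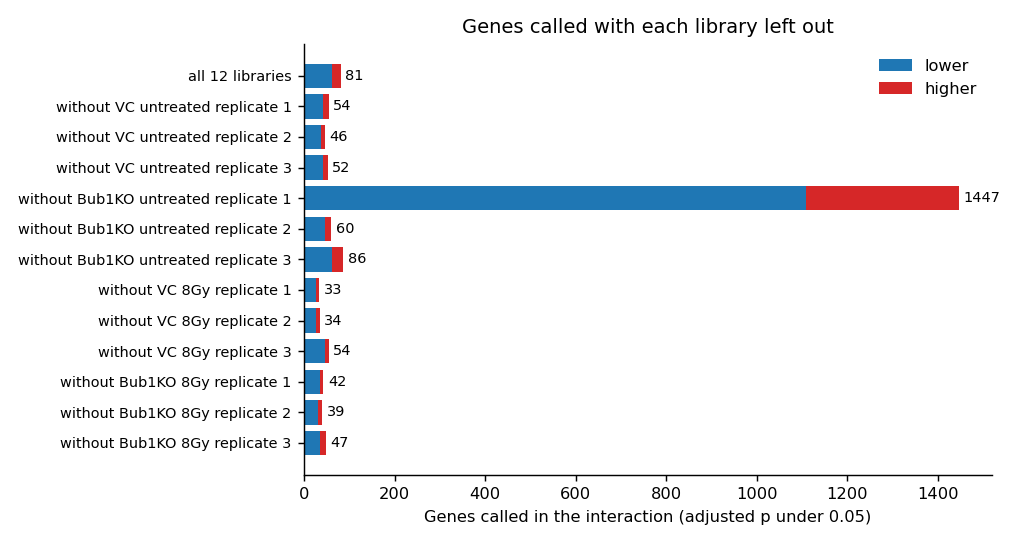
Number of genes called in the interaction (x axis, adjusted p under 0.05) with all 12 libraries and with each library left out (y axis), lower in blue and higher in red. The count is 81 with all libraries and 1447 without Bub1KO untreated replicate 1; with any other library left out it lies between 33 and 86.

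Radiation by itself raised 27.6% of genes and lowered 25.8% in vector control, and raised 25.4% and lowered 23.9% in Bub1KO. Untreated Bub1KO was above vector control in 6.64% of genes and below it in 5.38%, and after 8 Gy in 7.37% and 6.93%. Against that background the 61 lower genes fell into 3 patterns. In 26 of them the radiation response was positive in both genotypes and smaller in Bub1KO, in 24 it was positive in vector control and negative in Bub1KO, and in 11 it was negative in both and larger in Bub1KO. For 37 of the 61, the Bub1KO to vector control gap was called in untreated cells and not after 8 Gy, for 10 it was called only after 8 Gy, and for 14 at both doses. Bub1KO was above vector control untreated and below it after 8 Gy in 39. Among the 20 higher genes the response was positive in both genotypes in 11, negative in vector control and positive in Bub1KO in 8, and negative in both in 1. In 12 of the 20, Bub1KO lay below vector control untreated and above it after 8 Gy.

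**Figure D2:**
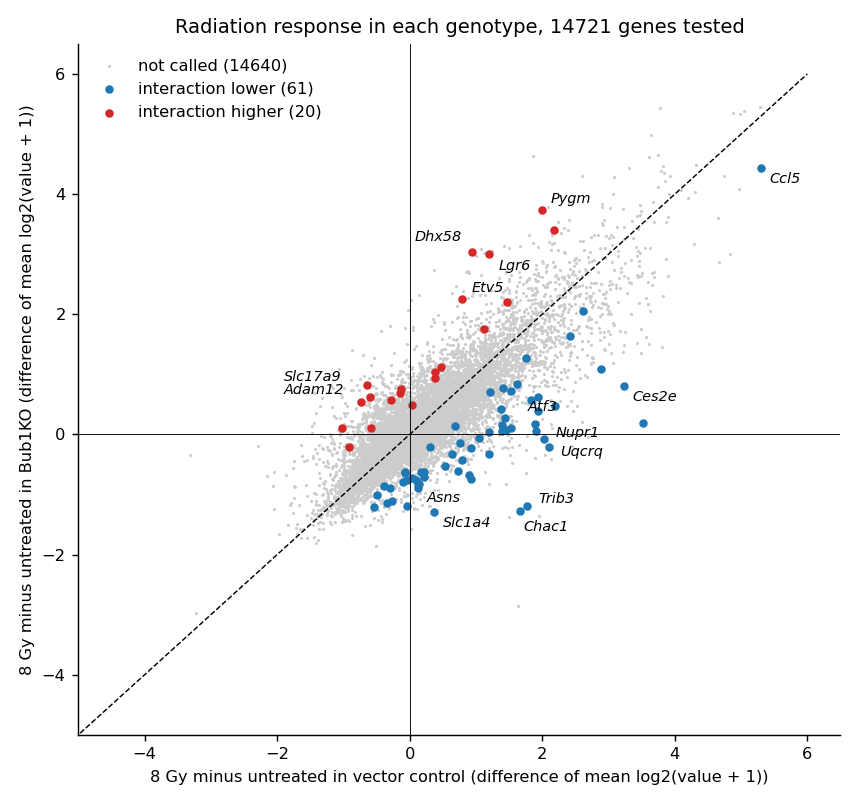
Radiation response of each tested gene in vector control (x axis) and in Bub1KO (y axis), both as 8 Gy minus untreated in mean log2(value + 1). The dashed line marks equal responses; the 61 genes with a lower interaction (blue) lie under it and the 20 with a higher one (red) above it, with Trib3 and Chac1 positive in vector control and negative in Bub1KO.

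Bub1 itself (chr2:127801122-127831865 in GRCm38) had no called interaction. Its scaled counts were 2752, 3185 and 2859 in untreated vector control, 1834, 1565 and 1588 in untreated Bub1KO, 1484, 1461 and 1507 in vector control after 8 Gy and 886, 989 and 1119.8 in Bub1KO after 8 Gy. Bub1KO libraries were lower at each dose without overlap, and transcripts remained. The gap was -0.82 log2 untreated (adjusted p = 7.61e-05) and -0.58 after 8 Gy (adjusted p = 0.00147), and the interaction was 0.24 (SE 0.13, adjusted p = 0.498) and 0.31 without Bub1KO untreated replicate 1 (adjusted p = 0.109). The gene-level count includes reads outside the edited part, so it does not measure loss of the protein.

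The largest named group with a negative interaction was the integrated stress response, whose list, like the others here, was chosen with earlier results of these data known. Of 40 tested members of that list, 21 were called lower and 0 higher, beside 0.414% and 0.136% of all genes, with a median interaction of -0.76 log2 beside 0.00 over all genes, and 39 of the 40 estimates were negative. Without Bub1KO untreated replicate 1, 33 of 40 were called lower and 0 higher, beside 7.53% and 2.30%, and the median was -0.87. The list's summed scaled count was 161560 to 168821 in untreated vector control, 221777 to 259681 in untreated Bub1KO, 156715 to 157577 in vector control after 8 Gy and 149419 to 162240 in Bub1KO after 8 Gy. Untreated Bub1KO libraries were thus the highest of all, and the irradiated genotypes overlapped. In untreated cells 30 of the 40 were higher in Bub1KO and 0 lower, beside 6.64% and 5.38% of all genes, with a median gap of 0.76. After 8 Gy 1 was higher and 5 lower, beside 7.37% and 6.93%, with a median gap of -0.06. Radiation raised 17 and lowered 8 of them in vector control (27.6% and 25.8% of all genes), with a median of 0.12. In Bub1KO it raised 6 and lowered 24 (25.4% and 23.9%), with a median of -0.63. The untreated gap without Bub1KO untreated replicate 1 was called higher in 36 and lower in 0 (13.8% and 10.8% of all genes), and the response in Bub1KO higher in 6 and lower in 28 (25.4% and 26.0%). The number of members called lower, 21 of the 61 genes called lower with all libraries, fell together with the count over all genes. It was 10 of 25 without vector control 8 Gy replicate 1 and 11 of 26 without its replicate 2. Without Bub1KO 8 Gy replicates 2 and 3 it was 10 of 30 and 13 of 34. Without vector control untreated replicates 1 and 2 it was 13 of 42 and 12 of 36.

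The windows below carry the composite core before the start of those named genes that were called lower and held a match. They are shown because they hold a letter pattern that the expression rule did not use. Each is 5′ to 3′ on the gene's strand, from RefSeq promoters of GRCm38.p6, and the capitals mark TGATGNAA or its reverse complement TTNCATCA.
Chac1 (+), chr2:119351033-119351072: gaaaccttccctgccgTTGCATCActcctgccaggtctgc
Atf3 (-), chr1:191183420-191183459: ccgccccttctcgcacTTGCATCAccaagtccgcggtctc
Nupr1 (-), chr7:126625557-126625596: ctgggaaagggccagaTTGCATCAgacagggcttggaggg
Herpud1 (+), chr8:94386301-94386340: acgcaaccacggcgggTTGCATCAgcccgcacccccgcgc
Pck2 (+), chr14:55540147-55540186: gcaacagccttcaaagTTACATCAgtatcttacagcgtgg
Jdp2 (+), chr12:85599367-85599406: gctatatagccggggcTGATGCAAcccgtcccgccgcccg
Asns (-), chr6:7693210-7693248: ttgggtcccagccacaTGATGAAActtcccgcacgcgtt
The first base of the match lay 193 bases before the annotated start in Chac1, 110 in Atf3 and in Nupr1, 112 in Herpud1, 103 in Pck2, 33 in Jdp2 and 23 in Asns. Both strands of the 250 bases before each start were searched. Trib3, Ddit3, Slc1a4, Mthfd2, Gpt2 and Sesn2, also called lower, have no window here, for want of a match or of a promoter entry. The core was found in 10 of 45 lower genes that had a promoter entry (22.2%), in 0 of 12 higher genes and in 235 of 10096 tested genes (2.33%). Entries covered 73.8% of the lower genes, 60% of the higher and 68.6% of all, which is under the 80% set as a minimum, so the comparison of shares is void and the matches stand as a description. A match shows the letters, not binding.

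Atf4, the central activator of this programme, had means of 7514 ± 531 in untreated vector control, 14354 ± 1536 in untreated Bub1KO, 6263 ± 266 in vector control after 8 Gy and 6697 ± 815 in Bub1KO after 8 Gy (SD, n = 3). Its interaction was -0.84 log2 (SE 0.14, adjusted p = 0.0134), and -0.93 without Bub1KO untreated replicate 1 (adjusted p = 0.000208). Trib3, a pseudokinase induced by Atf4 and Ddit3, was counted at 270.2, 264 and 279.7 in untreated vector control, 1329, 3159 and 2295 in untreated Bub1KO, 887, 1049 and 871 in irradiated vector control and 1272, 798 and 784 in irradiated Bub1KO. All untreated Bub1KO libraries exceeded all other libraries, replicate 1 being the lowest of them. Radiation raised Trib3 in vector control by 1.78 log2 (adjusted p = 4.48e-05) and changed it by -1.20 in Bub1KO (adjusted p = 0.00114). The interaction was -2.98 (SE 0.35, adjusted p = 0.00119), and -3.31 without that replicate (adjusted p = 1.03e-06).

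Chac1, which degrades glutathione and is another Atf4 target, was likewise highest in untreated Bub1KO. Its counts were 153, 151 and 154 in untreated vector control, 618, 1476 and 1297 in untreated Bub1KO, 470.0, 529 and 455 in irradiated vector control and 550.0, 387 and 386 in irradiated Bub1KO, and the irradiated groups overlapped. The response was 1.66 log2 in vector control and -1.28 in Bub1KO (adjusted p = 7.69e-05 and 0.000648), and the interaction -2.94 (SE 0.35, adjusted p = 0.00119). For Nupr1, a small stress-induced chromatin protein, the values were 123, 91.6 and 132, then 497, 911 and 669.7 in untreated Bub1KO, 533, 415 and 473 in irradiated vector control and 776, 584 and 572 in irradiated Bub1KO. It rose with radiation in vector control (2.03 log2, adjusted p = 2.37e-06), while the estimate in Bub1KO was -0.07 (adjusted p = 0.783) from an already higher start. The Nupr1 interaction was -2.11 (SE 0.28, adjusted p = 0.00277). The interactions of Chac1 and Nupr1 without Bub1KO untreated replicate 1 were -3.33 and -2.32 (adjusted p = 7.94e-08 and 3.21e-05).

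Atf3, a stress-induced repressor of the same family, was at 139, 142 and 163 in untreated vector control, 328, 461 and 431 in untreated Bub1KO, 542, 516 and 594 after 8 Gy in vector control and 501, 426 and 439 after 8 Gy in Bub1KO. Untreated vector control was the lowest group and irradiated vector control the highest, and the Bub1KO groups overlapped between them. The interaction was -1.72 (SE 0.18, adjusted p = 0.000754), from a response of 1.89 in vector control and 0.17 in Bub1KO. Ddit3, the pro-apoptotic factor also called Chop, was at 283, 255 and 286, 522, 1010.2 and 869, 1116, 1036 and 1023 and 1405, 1136 and 1059.9 in the same group order. Here irradiated Bub1KO held the highest library, and the response was positive in both genotypes. The Ddit3 interaction was -1.31 (SE 0.26, adjusted p = 0.0416), and the call was lost in 11 of the 12 fits that left out 1 library, with an adjusted p of up to 0.127. It was kept without Bub1KO untreated replicate 1 (-1.59, adjusted p = 1.37e-05). Jdp2, a Jun dimerization protein outside the list, had an interaction of -1.58 (SE 0.29, adjusted p = 0.0279), from means of 270.4 and 646 untreated and 505 and 382 after 8 Gy, vector control first. Its call was lost in 10 of the 12 such fits, with an adjusted p of up to 0.0938. The interactions of Atf3 and Jdp2 without Bub1KO untreated replicate 1 were -1.86 and -1.92 (adjusted p = 2.8e-06 and 1.03e-06).

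Genes of amino acid and one-carbon metabolism were among those called lower, on the list and outside it. Asns, asparagine synthetase, was at 4223, 4023 and 4557 in untreated vector control, 8508, 8972 and 7630.4 in untreated Bub1KO, 4592, 4702 and 4583 in irradiated vector control and 4718, 4450.3 and 4376 in irradiated Bub1KO. Untreated Bub1KO alone stood apart, and its replicate 1 lay between the other two. The response was 0.12 log2 in vector control (adjusted p = 0.192) and -0.89 in Bub1KO (adjusted p = 4.66e-07), and the interaction -1.01 (SE 0.10, adjusted p = 0.000754). Slc1a4, a neutral amino acid transporter that is not on the list, went from 705, 726 and 755 to 902, 906 and 1024 with radiation in vector control and from 1728, 2265 and 1817 to 940.0, 728 and 695 in Bub1KO. The responses were opposite, 0.37 (adjusted p = 0.0188) and -1.30 (adjusted p = 1.35e-06), and the interaction was -1.67 (SE 0.17, adjusted p = 0.000754). The interactions of Asns and Slc1a4 without Bub1KO untreated replicate 1 were -0.99 and -1.75 (adjusted p = 3.19e-05 and 1.29e-05).

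Mthfd2, a mitochondrial folate enzyme, was at 5064, 4965 and 5267 in untreated and 4856, 4789 and 5184 in irradiated vector control, and at 9159.8, 10930.2 and 9182 in untreated and 4864, 3869.9 and 4108 in irradiated Bub1KO. The 2 vector control groups overlapped and the Bub1KO groups did not. The Mthfd2 interaction was -1.15 (SE 0.13, adjusted p = 0.00119). Gpt2, mitochondrial alanine aminotransferase and also outside the list, rose by 0.73 in vector control (adjusted p = 0.000288) and changed by -0.60 in Bub1KO (adjusted p = 0.00126), an interaction of -1.33 (adjusted p = 0.00255). Pck2, the mitochondrial phosphoenolpyruvate carboxykinase, had means of 690.0 and 2136 untreated and 1583 and 1636 after 8 Gy (vector control first) and an interaction of -1.53 (adjusted p = 0.019). That call was lost in 6 of the 12 fits without 1 library, with an adjusted p of up to 0.0709. Sesn2, a leucine-sensing regulator of mTORC1 that is also a p53 target, had an interaction of -1.27 (adjusted p = 0.00549). Herpud1, a component of the degradation machinery of the endoplasmic reticulum, had one of -0.97 (adjusted p = 0.00124). Both were lower relative to vector control after 8 Gy than before: the Herpud1 gap was 0.98 untreated and 0.00 after 8 Gy. The chaperones of the unfolded protein response that were listed separately gave 0 higher and 1 lower of 19, the 1 being Herpud1. All genes gave 0.136% and 0.414%, and the list's median interaction was 0.04. Without Bub1KO untreated replicate 1 the list gave 0 higher and 3 lower, beside 2.30% and 7.53% of all genes, with a median of 0.10. That fit gave interactions of -1.19 for Mthfd2, -1.47 for Gpt2, -1.81 for Pck2, -1.45 for Sesn2 and -1.05 for Herpud1, all 5 called.

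**Figure D3:**
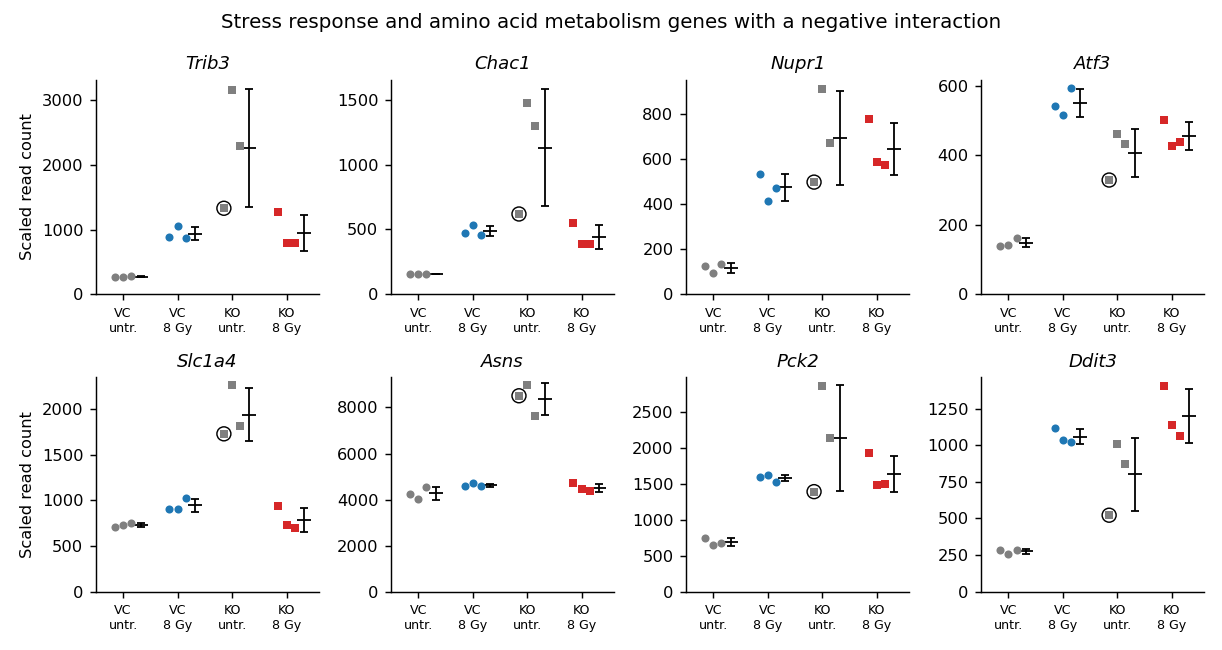
Scaled read counts (y axis, starting at 0) of 8 genes of the stress response and amino acid metabolism by group (x axis), 1 point per library with the mean and SD beside them; the ring marks Bub1KO untreated replicate 1. In Trib3, Chac1, Slc1a4 and Asns every untreated Bub1KO library lies above every other library, whereas in Ddit3 the irradiated Bub1KO group has the highest mean.

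Of the aminoacyl-tRNA synthetases of the list, Cars (-0.68 log2, adjusted p = 0.0279), Iars (-0.60, adjusted p = 0.0416) and Nars (-0.57, adjusted p = 0.0188) were called, and Aars, Sars, Wars, Gars, Eprs and Mars were not. Without Bub1KO untreated replicate 1, Aars (-0.69, adjusted p = 0.000606), Sars (-0.58, adjusted p = 0.00231) and Wars (-0.29, adjusted p = 0.0222) were called as well, and Cars, Iars and Nars had -0.72, -0.63 and -0.54. Among the 40 members, Ero1l, an oxidase of the endoplasmic reticulum, was the only one with a positive estimate (0.15, adjusted p = 0.776, and 0.28 without that replicate). Several called genes outside the list, singled out after their values were seen, encode further steps of the same chemistry: Pycr1 (-1.33) and Aldh18a1 (-0.97) make proline, and Tars (-0.86) and Lars (-0.56) charge tRNA. All 4 were also called without that replicate, at -1.54, -1.07, -0.93 and -0.56.

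Of 49 tested interferon-stimulated genes, 1 was called higher and 0 lower (0.136% and 0.414% of all genes), the median interaction was 0.47 beside 0.00, and 41 estimates were positive. Without Bub1KO untreated replicate 1, 17 were called higher and 0 lower, beside 2.30% and 7.53% of all genes, with a median of 0.45. Radiation raised 40 of the 49 in vector control (median 1.33), beside 27.6% of all genes, and 46 in Bub1KO (median 1.95), beside 25.4%. Bub1KO exceeded vector control in 15 untreated (median gap 0.31), beside 6.64%, and in 38 after 8 Gy (median gap 0.85), beside 7.37%. Without that replicate radiation raised 46 in Bub1KO, and the untreated gap was called higher in 18 (13.8% of all genes). The list's summed scaled count was 15456 to 15871 in untreated vector control and 18089 to 18218 in untreated Bub1KO. After 8 Gy it was 28463 to 29404 in vector control and 43727 to 51677 in Bub1KO, with no overlap between any of the 4 groups. A summed count is weighted toward the abundant members.

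Dhx58, the receptor-like helicase Lgp2 that tunes RNA sensing by Ifih1 and Ddx58, was the called member. It was at 58.8, 60.6 and 60.5 in untreated vector control, 27.4, 42.0 and 34.8 in untreated Bub1KO, 127, 112 and 112 in irradiated vector control and 345, 286 and 242 in irradiated Bub1KO. Untreated Bub1KO lay below untreated vector control and irradiated Bub1KO above irradiated vector control, with no overlap. Radiation raised it by 0.94 log2 in vector control (adjusted p = 0.00035) and by 3.04 in Bub1KO (adjusted p = 1.47e-08). The interaction was 2.09 (SE 0.24, adjusted p = 0.00119), and 1.94 without Bub1KO untreated replicate 1.

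The RNA sensors that signal directly were not called. Ddx58, or RIG-I, was at 92.0, 96.7 and 92.0 in untreated vector control, 156, 149 and 151 in untreated Bub1KO, 527, 536 and 518 in irradiated vector control and 1140.2, 1056 and 1005 in irradiated Bub1KO. Bub1KO was higher at both doses without overlap, by 0.69 log2 untreated and 1.01 after 8 Gy, and the interaction was 0.32 (SE 0.12, adjusted p = 0.281). Ifih1, or Mda5, had an interaction of 0.08 (SE 0.15, adjusted p = 0.887). Eif2ak2, the kinase PKR that is both an interferon target and a trigger of the integrated stress response, was at 1499, 1710.4 and 1669.5 and 1795, 1873 and 1771 in untreated and irradiated vector control, and at 1863, 1458 and 1394 and 2713, 2380.4 and 2186 in Bub1KO. Its interaction of 0.47 (adjusted p = 0.216) was called only without Bub1KO untreated replicate 1 (0.60, adjusted p = 0.00349) among the fits that left out a library; that replicate had the highest of the 3 untreated Bub1KO values. Adar, which edits double-stranded RNA, had 0.20 (adjusted p = 0.517). In the fit without Bub1KO untreated replicate 1, Ddx58, Ifih1 and Adar had 0.34, 0.14 and 0.12 (adjusted p = 0.0922, 0.601 and 0.473). Over the RNA sensing list, 1 of 22 was called higher, Dhx58, and 0 lower, beside 0.136% and 0.414% of all genes. Without that replicate the counts were 3 higher and 1 lower, beside 2.30% and 7.53%.

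Radiation raised the effector genes Isg15 (by 4.32 log2 in vector control and 4.49 in Bub1KO) and Ifit1 (5.04 and 5.39), whereas Ifit2, singled out after its values were seen, had estimates of -0.13 (adjusted p = 0.331) and -0.20 (adjusted p = 0.145). Isg15, a ubiquitin-like modifier, was at 25.7, 20.6 and 20.2 in untreated vector control, 64.0, 52.6 and 49.5 in untreated Bub1KO, 485, 454 and 439.8 in irradiated vector control and 1590.1, 1241 and 1018 in irradiated Bub1KO. The 4 groups did not overlap. The gap between genotypes was 1.28 log2 untreated and 1.46 after 8 Gy, and the interaction was 0.17 (SE 0.23, adjusted p = 0.822). Ifit1, which binds foreign RNA caps, was at 17.4, 25.8 and 15.1 and 28.5, 22.2 and 15.8 untreated, and at 669, 641 and 655 and 1156, 883 and 832 after 8 Gy, vector control first. Its interaction was 0.35 (SE 0.30, adjusted p = 0.7). Irf7, the factor that amplifies interferon production, was near 0 in untreated vector control (0, 0 and 1.26) and at 145, 120.3 and 80.9 in irradiated Bub1KO, with 6.10, 3.29 and 6.32 and 17.1, 20.9 and 16.1 in the groups between. With so few reads in its first group the interaction had no stable sign: 0.38 here, -1.004 with DESeq2 and -0.73 with edgeR, none of them called. The interactions of Isg15, Ifit1 and Irf7 without Bub1KO untreated replicate 1 were 0.28, 0.55 and 0.49 (adjusted p = 0.473, 0.234 and 0.659).

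Of 2 interferon-linked chemokines, 1 was called. Cxcl10, a T cell attractant, was at 148, 174 and 170.1 and 93.5, 118 and 112 untreated and at 545, 448 and 508 and 581, 479 and 621 after 8 Gy, vector control first. Untreated Bub1KO was below untreated vector control and the irradiated groups overlapped. Its interaction was 0.76 (SE 0.18, adjusted p = 0.101), and 0.66 with an adjusted p of 0.02 without Bub1KO untreated replicate 1. Ccl5, which also recruits T cells, was at 24.0, 19.3 and 21.4 and 29.5, 28.8 and 28.4 untreated and at 902, 906 and 845 and 702, 685 and 553 after 8 Gy. It rose in both genotypes, and Bub1KO went from above vector control to below it. The Ccl5 interaction was -0.87 (SE 0.17, adjusted p = 0.0436). That call was lost in 10 of the 12 fits without 1 library (adjusted p up to 0.158) and was kept without Bub1KO untreated replicate 1 (-0.85, adjusted p = 0.00683). B2m encodes beta-2 microglobulin, the invariant subunit of MHC class I, and had an interaction of 0.34 (adjusted p = 0.159), called without that replicate (0.39, adjusted p = 0.00636), and the heavy chain gene H2-K1 had 0.15 (adjusted p = 0.833), and 0.20 without it (adjusted p = 0.621). Of 37 interferon-stimulated genes with a promoter entry, 15 (40.5%) held GAAANNGAA or its reverse complement TTCNNTTTC in the 250 bases before the start, against 706 of 10096 tested genes (6.99%). That share describes the list and not the interaction. Among genes called in the interaction, 1 of 12 higher (8.33%, Lgr6) and 1 of 45 lower (2.22%) held it. Dhx58 had no match or no promoter entry. Entries covered 75.5% of the interferon-stimulated list, so these comparisons are void too.

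**Figure D4:**
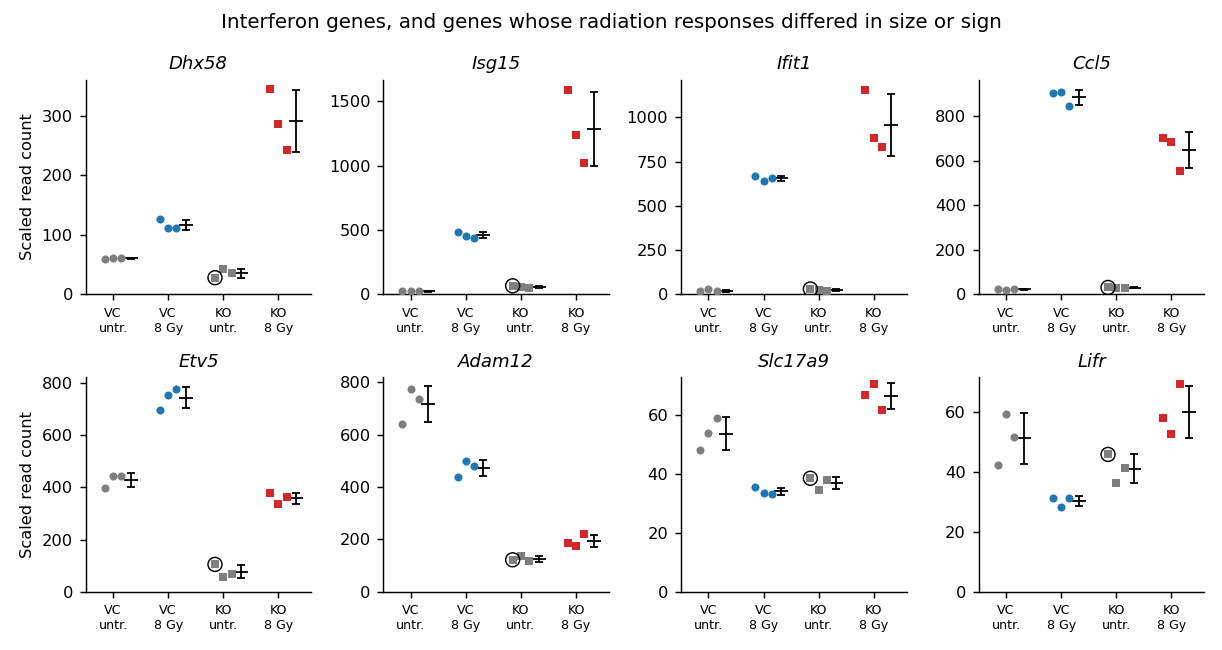
Scaled read counts (y axis, starting at 0) of 8 genes by group (x axis), 1 point per library with the mean and SD beside them; the ring marks Bub1KO untreated replicate 1. Dhx58 and Slc17a9 cross between genotypes with radiation, Isg15 and Ifit1 rise in both, and Adam12 and Lifr are lower after 8 Gy in vector control and higher after 8 Gy in Bub1KO.

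Of the higher genes, 4 responded to radiation in opposite directions in the 2 genotypes, with both responses called. Adam12, a membrane metalloprotease, was at 639.9, 773 and 736 in untreated and 437, 499 and 479 in irradiated vector control, and at 122, 137 and 117 and 185, 174 and 219.5 in Bub1KO. It fell in vector control (-0.60 log2, adjusted p = 0.000631) and rose in Bub1KO (0.62, adjusted p = 0.000548), and Bub1KO stayed the lower genotype throughout. Its interaction was 1.21 (SE 0.16, adjusted p = 0.00255). Slc17a9, the vesicular nucleotide transporter, was at 48.1, 54.2 and 59.2 and 35.6, 33.6 and 33.2 in vector control and at 38.6, 34.6 and 37.9 and 67.1, 70.8 and 62.0 in Bub1KO, untreated first. The groups crossed, and the interaction was 1.47 (SE 0.21, adjusted p = 0.00549). Lifr, the receptor of leukaemia inhibitory factor, fell from 42.3, 59.3 and 51.7 to 31.3, 28.1 and 31.1 in vector control and rose from 45.7, 36.2 and 41.1 to 57.8, 52.6 and 69.3 in Bub1KO, with an interaction of 1.26 (SE 0.26, adjusted p = 0.0446). That call was lost in 10 of the 12 fits without 1 library (adjusted p up to 0.14). The interactions of Adam12, Slc17a9 and Lifr without Bub1KO untreated replicate 1 were 1.20, 1.498 and 1.34 (adjusted p = 0.000402, 0.00146 and 0.00592).

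Etv5, a transcription factor downstream of ERK signalling, rose with radiation in both genotypes, by 0.79 log2 in vector control and 2.26 in Bub1KO. It was at 399, 442 and 445 in untreated vector control, 105, 56.8 and 68.4 in untreated Bub1KO, 698, 753 and 779 in irradiated vector control and 377, 335 and 363 in irradiated Bub1KO. Bub1KO was the lower genotype at both doses, with a gap of -2.51 untreated and -1.05 after 8 Gy. The interaction was 1.46 (SE 0.24, adjusted p = 0.012), with an adjusted p of 0.0503 without vector control 8 Gy replicate 1. On the untransformed scale the sign differed, since the absolute gain with radiation was larger in vector control (means 429 to 743) than in Bub1KO (76.6 to 358). Hoxa11, a homeobox factor, was at 430.2, 441 and 444 and 406, 388 and 402 in vector control and at 163, 175 and 168 and 287, 276 and 295 in Bub1KO, untreated first. It changed by -0.14 log2 in vector control (adjusted p = 0.175) and rose by 0.76 in Bub1KO (adjusted p = 5.15e-06), and the Hoxa11 interaction was 0.89 (SE 0.12, adjusted p = 0.00223). The interactions of Etv5 and Hoxa11 without Bub1KO untreated replicate 1 were 1.71 and 0.87 (adjusted p = 7.05e-06 and 0.000354).

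Pygm, muscle glycogen phosphorylase, was at 9.12, 9.03 and 12.6 and 9.15, 9.87 and 9.48 untreated and at 42.0, 47.2 and 40.8 and 145, 131 and 141 after 8 Gy, vector control first. The untreated groups overlapped and the irradiated ones were far apart, for an interaction of 1.75 (SE 0.27, adjusted p = 0.00733). Cd68, a lysosomal protein used as a macrophage marker, was at 26.5, 23.2 and 22.7 and 18.3, 18.9 and 21.1 untreated and at 130.1, 109.8 and 98.7 and 224, 214 and 209 after 8 Gy. Its interaction was 1.24 (SE 0.21, adjusted p = 0.0172), lost in 6 of the 12 fits without 1 library (adjusted p up to 0.0706). Of the 8 leukocyte markers, 6 did not pass the filter, and Adgre1 and Cd3e were at 0 in every library. The list's summed scaled count was 29.0 to 32.3 in untreated vector control, 28.8 to 31.5 in untreated Bub1KO, 172 to 196 in vector control after 8 Gy and 271 to 288 in Bub1KO after 8 Gy. Nearly all of it came from Cd68 and Lyz2, and leukocytes' part in the Cd68 result was not tested. The interactions of Pygm and Cd68 without Bub1KO untreated replicate 1 were 1.72 and 1.20 (adjusted p = 0.00187 and 0.0036).

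Egln3, a prolyl hydroxylase induced by hypoxia, was at 109, 108 and 135 and 175, 115 and 162 untreated and at 61.2, 49.9 and 60.1 and 156, 157 and 166 after 8 Gy, vector control first. It fell in vector control (-1.03, adjusted p = 0.000133), and the estimate in Bub1KO was 0.10 (adjusted p = 0.624). The interaction was 1.13 (SE 0.23, adjusted p = 0.0446), lost in 11 of the 12 fits without 1 library, with an adjusted p of up to 0.14. It was the 1 called member of 25 glycolysis and hypoxia genes, beside 0.136% of all genes called higher. The list's median interaction was 0.22. That list without Bub1KO untreated replicate 1 had 5 higher and 2 lower, beside 2.30% and 7.53% of all genes. Clmn, a membrane protein of the calponin family, stayed near its level in Bub1KO (1698, 1686 and 1691 untreated and 1822, 1840.4 and 1835 irradiated) and fell from 1479.5, 1500.2 and 1559 to 1050.2, 1024 and 954 in vector control, an interaction of 0.70 (SE 0.09, adjusted p = 0.00219). The remaining named genes on this side were Lgr6 (1.80), Pde9a (0.83), Zcchc24 (0.74) and Rab11fip4 (0.71), whose calls were lost in 11, 10, 3 and 10 of the 12 fits without 1 library. All 6 of these genes were called without Bub1KO untreated replicate 1, at 1.25 for Egln3, 0.70 for Clmn, 2.16 for Lgr6, 0.70 for Pde9a, 0.74 for Zcchc24 and 0.80 for Rab11fip4.

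Lower genes outside the stress response included a set whose gap was called after 8 Gy and not before. Uqcrq, a subunit of respiratory complex III, was at 1076, 574 and 643 in untreated vector control, 658, 1406 and 1668 in untreated Bub1KO, 2803, 5003 and 2257 in irradiated vector control and 984, 1038 and 974 in irradiated Bub1KO. Irradiated vector control was the highest group and spread from replicate to replicate by more than a factor of 2. The interaction was -2.32 (SE 0.47, adjusted p = 0.0456), lost in 9 of the 12 fits without 1 library (adjusted p up to 0.135). Rps13, a protein of the small ribosomal subunit, was at 7029, 8785 and 6490.2 in irradiated vector control and 4068, 4278 and 3902 in irradiated Bub1KO, with 4933, 3999 and 5392 and 4915, 4756 and 5817 untreated. Its replicate 2 was again the highest irradiated vector control. The Rps13 interaction was -0.97 (SE 0.18, adjusted p = 0.024), lost in 7 of the 12 such fits (adjusted p up to 0.0783). The interactions of Uqcrq and Rps13 without Bub1KO untreated replicate 1 were -2.72 and -1.004 (adjusted p = 0.000272 and 0.00181). Rps13 was the 1 called gene of 55 cytosolic ribosomal proteins, beside 0.414% of all genes called lower, and the list's median interaction was 0.14. Without that replicate 12 were lower and 0 higher, beside 7.53% and 2.30% of all genes. Processed copies of ribosomal protein genes could take some of the reads of these genes.

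The noncoding 1110038B12Rik, which hosts small nucleolar RNAs, was at 2334, 1838 and 2078 in untreated vector control, 1772, 1977 and 2117 in untreated Bub1KO, 2884, 3261 and 2891 in irradiated vector control and 1341, 1380.3 and 1349 in irradiated Bub1KO. It rose in vector control (0.54, adjusted p = 0.0003) and fell in Bub1KO (-0.52, adjusted p = 0.00039), and the interaction was -1.06 (SE 0.13, adjusted p = 0.00182). Rn7sk, the 7SK RNA that restrains transcription elongation, was at 166, 128 and 108 and 299.8, 198 and 175 untreated and at 272, 275 and 215 and 116, 141 and 136 after 8 Gy, vector control first. Its interaction was -1.67 (SE 0.28, adjusted p = 0.0154), lost in 4 of the 12 fits without 1 library (adjusted p up to 0.0606), and near-identical copies in the genome make its count uncertain. The interactions of 1110038B12Rik and Rn7sk without Bub1KO untreated replicate 1 were -1.13 and -1.44 (adjusted p = 4.27e-05 and 0.00118). The Rn7sk gap was called at both doses, as 0.72 untreated and -0.95 after 8 Gy (adjusted p = 0.03 and 0.00703). The genes with a gap called after 8 Gy and not untreated were Uqcrq, Rps13, 1110038B12Rik and, named after their values were seen, Hrk, Snhg8, Uqcc2, Mrpl57, Snord104, Nptxr and Peg10. The longest annotated transcripts of these 10 genes had a median of 1942 bases, against 3040 over all genes tested. Of the 10, 7 were shorter than that median. The part of transcript length in their interactions was not tested.

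Ces2e, a carboxylesterase, was at 11.6, 7.74 and 11.3 and 22.4, 21.4 and 16.8 untreated and at 99.5, 101 and 108 and 36.1, 38.4 and 32.6 after 8 Gy, vector control first. Bub1KO was the higher genotype untreated and the lower one after radiation, without overlap, for an interaction of -2.43 (SE 0.29, adjusted p = 0.00119). Arl11, a small GTPase-like protein, was at 39.8, 29.7 and 32.8 and 167, 169 and 156 untreated and at 128, 138 and 132 and 213, 221 and 213 after 8 Gy. Bub1KO stayed above vector control, with a gap that shrank from 2.24 to 0.70 log2 (interaction -1.54, SE 0.18, adjusted p = 0.00119). Hs3st1, a heparan sulfate sulfotransferase (-1.73, adjusted p = 0.00423), Cyb5r2, a cytochrome b5 reductase (-1.42, adjusted p = 0.0058), and Brd3os (-1.85, adjusted p = 0.00255) also started higher in Bub1KO and rose in vector control. Brd3os lies opposite Brd3, and whether counting used strand is not given in the sources used here. Ankdd1b had an interaction of -1.79 (adjusted p = 0.0241), lost in 8 of the 12 fits without 1 library (adjusted p up to 0.0891). These 6 genes were also called without Bub1KO untreated replicate 1, at -2.35 for Ces2e, -1.53 for Arl11, -1.89 for Hs3st1, -1.40 for Cyb5r2, -2.05 for Brd3os and -2.03 for Ankdd1b.

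Nr4a3, an orphan nuclear receptor induced by many stimuli, was at 467, 441 and 452 and 1026, 1042 and 969 untreated and at 1372, 1451 and 1363 and 1874, 1828 and 1706 after 8 Gy, vector control first. The 4 groups did not overlap, and the interaction was -0.79 (SE 0.10, adjusted p = 0.00182). In the ERK and early-response list 1 of 24 was called higher (Etv5) and 2 lower (Nr4a3 and Atf3), beside 0.136% and 0.414% of all genes. The list's median was -0.18, and without Bub1KO untreated replicate 1 the counts were 2 higher and 5 lower, beside 2.30% and 7.53%. Among 23 genes of melanin synthesis and the melanosome, 0 were called higher and 2 lower (0.136% and 0.414% of all genes), with a median of -0.16. Without that replicate 1 was called higher and 5 lower (2.30% and 7.53% of all genes). Rab27a, which tethers melanosomes at the cell edge, was at 3401, 3469.8 and 3309 and 5805, 5423 and 5149 untreated and at 5495, 5541 and 5351 and 5919, 5897 and 6291 after 8 Gy. Its interaction was -0.54 (adjusted p = 0.014) and that of the ion exchanger Slc24a4 -0.77 (adjusted p = 0.0171), lost in 4 and 5 of the 12 fits without 1 library. For Slc24a4 the sign differed on the untransformed scale. Tyr, the rate-limiting enzyme of melanin synthesis, was higher in Bub1KO at both doses (1.95 and 1.48 log2), with an interaction of -0.47 (adjusted p = 0.206), and Mitf, the melanocyte master regulator, had -0.36 (adjusted p = 0.175). Without that replicate the interactions were -0.78 for Nr4a3, -0.50 for Rab27a and -0.76 for Slc24a4, all called, -0.36 for Tyr (adjusted p = 0.0686) and -0.31 for Mitf (adjusted p = 0.0499).

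Among p53 targets, Cdkn1a, the p53-induced inhibitor p21, was at 10265, 9736 and 11503 and 29981, 30457 and 31717 in untreated and irradiated vector control and at 9343, 7367 and 8113 and 30979, 30356 and 28344 in Bub1KO. It rose in both genotypes, by 1.55 and 1.86 log2, with an interaction of 0.31 (SE 0.13, adjusted p = 0.34) that was called without Bub1KO untreated replicate 1 (0.40, adjusted p = 0.0187). Mdm2, the p53 inhibitor, had -0.08 (SE 0.11, adjusted p = 0.836) and 0.01 without Bub1KO untreated replicate 1. Of 43 p53 target genes, 1 was called lower, Sesn2, and 0 higher, with a median of 0.01, while radiation raised 36 of them in vector control and 37 in Bub1KO, beside 27.6% and 25.4% of all genes. In the G2/M and mitotic list 0 of 50 were called in either direction, with a median of -0.19, and in the G1/S and replication list 0 of 56. Radiation lowered 48 of 50 and 48 of 56 of these in vector control and 49 and 50 in Bub1KO, beside 25.8% and 23.9% of all genes. With 0.550% of all genes called in the interaction, counts of 0 or 1 in lists of this size do not set them apart. Counts without Bub1KO untreated replicate 1 were 2 higher and 4 lower for p53 targets, 0 and 6 for G2/M and 2 and 6 for G1/S, beside 2.30% and 7.53% of all genes. Ccnb1, the mitotic cyclin, had an interaction of -0.22 (SE 0.12, adjusted p = 0.484), and -0.15 without that replicate (adjusted p = 0.406). No gene of 44 in DNA double-strand break repair was called in either fit.

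Stress granule proteins gave 0 calls of 33, with a median interaction of 0.02, and 1 lower without Bub1KO untreated replicate 1. G3bp1, their scaffold, was at 13075, 13206 and 13086 and 9550.1, 9917 and 9783 in vector control and 10964, 11244 and 11273 and 8128, 7809.5 and 8044 in Bub1KO, untreated first, and its interaction was -0.05 (SE 0.08, adjusted p = 0.846), or -0.07 without that replicate (adjusted p = 0.629). The editing and decay list for double-stranded RNA gave 0 of 23, cytosolic DNA sensing 0 of 10 and MHC class I presentation 0 of 19. The NF-kB cytokine list gave 1 lower of 18, which was Ccl5, beside 0.414% of all genes. In the matrix and TGF-beta list 0 of 26 were called, and Fn1, fibronectin, was lower in Bub1KO at both doses (-1.07 and -1.60), with an interaction of -0.53 (adjusted p = 0.213), or -0.53 without that replicate (adjusted p = 0.0604). The lists of cholesterol synthesis (27), Nrf2 targets (22), cell death (24), lysosome (26), clustered histones (13) and mitochondrially encoded mRNAs (7) had 0 calls each. The list of abundant noncoding RNAs had 1 lower of 7, Rn7sk, beside 0.414% of all genes. Clustered histones, though uncalled, had a median interaction of -0.50, with 9 of 13 estimates negative, and a median of -0.45 without Bub1KO untreated replicate 1. Fibroblast and endothelial markers gave 0 of 3 tested, keratinocyte markers 0 of 1 and melanocyte markers 0 of 9. Without Bub1KO untreated replicate 1, which gave 2.30% of all genes higher and 7.53% lower, 1 was higher and 5 lower for cholesterol synthesis, 2 and 1 for Nrf2 targets, 0 and 2 for cell death, 0 and 4 for lysosome, 0 and 1 for histones, 1 and 0 for mitochondrially encoded mRNAs and 2 and 1 for noncoding RNAs. In that fit 1 was higher and 1 lower for double-stranded RNA editing and decay, and 1 higher and 2 lower for each of cytosolic DNA sensing, MHC class I presentation, NF-kB cytokines and matrix. The marker lists gave 0 and 1 for fibroblast and endothelial, 0 and 0 for keratinocyte and 0 and 2 for melanocyte genes. An uncalled interaction does not show equal responses: with the median SE of 0.176, an interaction as large as that of Cdkn1a is under 2 standard errors for a typical gene.

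**Figure D5:**
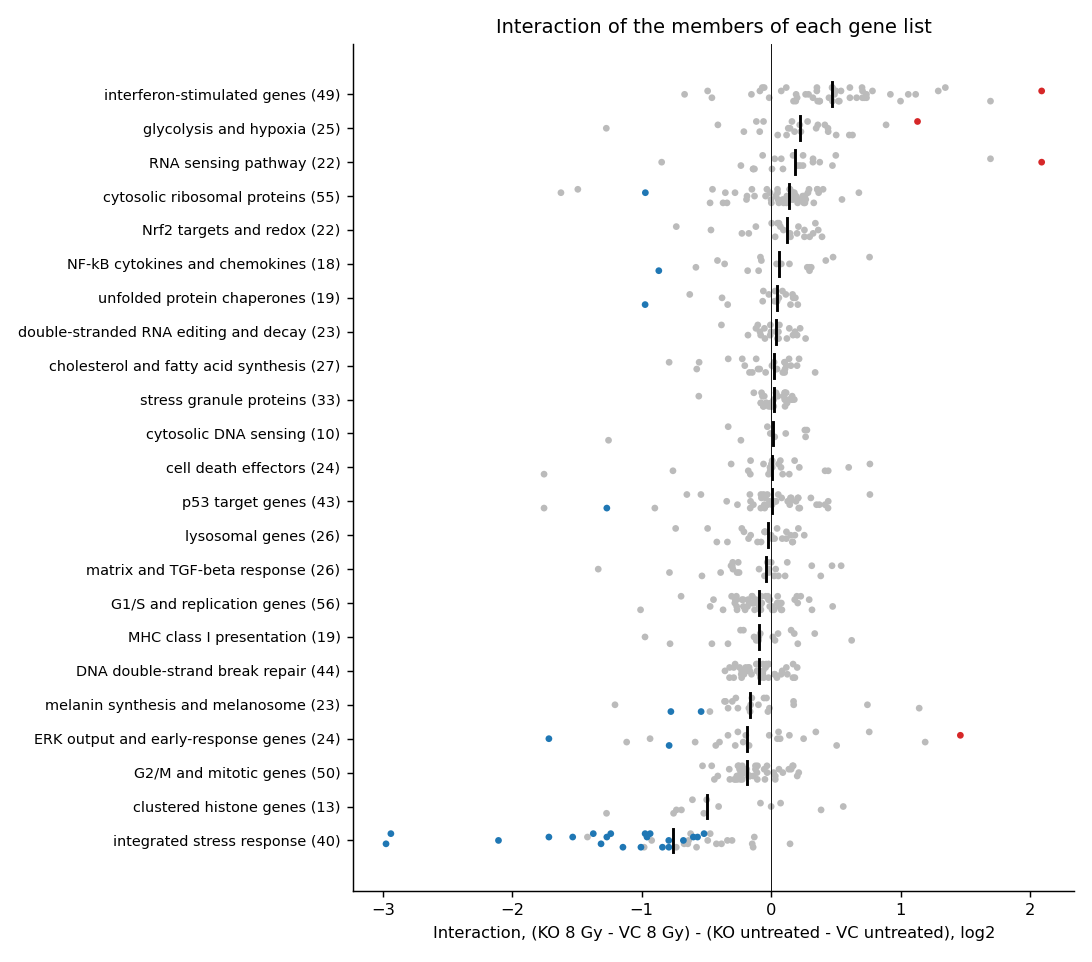
Interaction (x axis, log2) of every tested member of each gene list with 10 or more tested members (y axis, number tested in brackets); the bar is the list's median, blue and red mark members called lower and higher. The integrated stress response lies furthest to the left, with a median of -0.76, and the interferon-stimulated genes furthest to the right, with 0.47.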

How the data were processed

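RNA was measured in 12 libraries of B16F10 cells made with a stranded total RNA kit with ribosomal RNA depletion, per the labels' protocols. Trim Galore, cutadapt, STAR, SAMtools and HTSeq and the builds GRCm38.p6 and mm10 are listed in the submitters' processing notes, without versions or settings; whether counting used strand is not given in the sources used here. The authors deposited 2 tables, 1 per dose, whose sample columns hold a signal per gene: read counts divided by 1 size factor per library (0.775 to 1.41), the same mean over all 12 libraries standing in both tables. Every deposited value was a whole multiple of its library's step within 0.01 (100% of values), so whole reads were recovered and used for the count tests. The authors' deposited log2 fold changes, test scores and p-values were not used.

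The tables were joined by gene identifier, and positions came from GENCODE release 21 for mouse (GRCm38), which matched 55154 of 55421 identifiers. Genes with a value of 10 or more in 3 or more libraries (14721) were fitted with limma 3.58.1 in R 4.3.3 (lmFit on log2(value + 1), 4 group means, contrasts, eBayes with trend), with Benjamini-Hochberg adjustment over all of them and a threshold of 0.05. A fold on that scale understates changes of low genes. The alternatives were no filter, a filter of 50, pseudocounts of 5 and 0.5, the replicate number as a block, TMM factors, edgeR 4.0.16, DESeq2 1.42.0, limma array weights, removal of GC trends, and each library left out. The script was tested on simulated data. Promoters came from RefSeq (GRCm38.p6), matched by symbol.

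Named genes were Bub1, a set of readouts, the 15 largest called interactions in each direction with a group mean of 50 or more and the same sign without Bub1KO untreated replicate 1, up to 4 called members with the smallest p of each list, and the 10 called genes with the smallest p whose responses had opposite signs in the 2 genotypes; 1 gene the rule chose is not reported here. The members, lists and rules were chosen with earlier results of these data known.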

Additional observations from a re-analysis of the deposited data

Results flagged for a closer look

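The 41 named genes called in the interaction differed in their radiation response between Bub1KO and vector control by a test of the difference itself (limma, adjusted p under 0.05). Most were named because that same test called them, so the list adds no separate support. Of the 41, 23 kept the call in all 23 alternatives. The interactions of the 41 genes in log2 were as follows. Stress-response and amino acid genes were Trib3 at -2.98, Chac1 at -2.94, Nupr1 at -2.11, Atf3 at -1.72, Slc1a4 at -1.67, Jdp2 at -1.58, Pck2 at -1.53, Gpt2 at -1.33, Ddit3 at -1.31, Sesn2 at -1.27, Mthfd2 at -1.15, Asns at -1.01 and Herpud1 at -0.97. Other lower genes were Ces2e at -2.43, Uqcrq at -2.32, Brd3os at -1.85, Ankdd1b at -1.79, Hs3st1 at -1.73, Rn7sk at -1.67, Arl11 at -1.54, Cyb5r2 at -1.42, 1110038B12Rik at -1.06, Rps13 at -0.97, Ccl5 at -0.87, Nr4a3 at -0.79, Slc24a4 at -0.77 and Rab27a at -0.54. Higher genes were Dhx58 at 2.09, Lgr6 at 1.80, Pygm at 1.75, Slc17a9 at 1.47, Etv5 at 1.46, Lifr at 1.26, Cd68 at 1.24, Adam12 at 1.21, Egln3 at 1.13, Hoxa11 at 0.89, Pde9a at 0.83, Zcchc24 at 0.74, Rab11fip4 at 0.71 and Clmn at 0.70.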

How the results depend on the processing

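The count of 81 genes (20 higher, 61 lower) was 47 (12 and 35) with the replicate block, 283 (92 and 191) with DESeq2, 1463 (484 and 979) with array weights, 417 (125 and 292) with GC trends removed, and 277 (81 and 196) with that removal and the replicate block. With 1 library left out it ran from 33 to 1447 (8 to 339 higher, 25 to 1108 lower). The alternatives on 11 libraries were chosen after seeing the data: the 1447 genes (339 higher, 1108 lower) became 780 (176 and 604) with no filter, 513 higher with GC trends removed, and 769 to 1497 (134 to 339 and 635 to 1174) with a further library left out. The 21 integrated stress response genes called lower were 13 with the replicate block and 35 with array weights. The 1 interferon-stimulated gene called higher became 10 with DESeq2, 20 with array weights, 11 with GC trends removed and 9 with the block as well. It became 2 with the filter of 50 or the pseudocount of 5. Of the 41 named called genes, 23 kept the call in all 23 alternatives and 0 reversed. Irf7, uncalled, reversed at -0.25 with a pseudocount of 0.5, -0.73 with edgeR and -1.004 with DESeq2, and ran from -0.016 to 0.61 with a library left out. Mdm2, uncalled, ran from -0.13 to 0.011. The cause of these shifts was not tested. Same-numbered libraries were not visibly paired: over 18 such pairs the correlation of deviations from group means was -0.19 to 0.20, with 1 above 0.1. Pairs with different numbers ran from -0.24 to 0.21. Whether same-numbered libraries shared a culture or batch was not tested. With 3 libraries a group and a median SE of 0.176, the smallest called interaction was 0.46 in size.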

Other observations

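Without Bub1KO untreated replicate 1, more interferon-stimulated genes were called, all higher. They included Ifit3 (1.31 log2, adjusted p = 0.00446), Xaf1 (1.18, adjusted p = 0.00846), Stat2 (0.80, adjusted p = 0.00702), Rsad2 (0.82, adjusted p = 0.0047) and Irf1 (0.61, adjusted p = 0.0358), named after their values were seen. Ifit3, for example, had means of 50.7 and 55.8 untreated and 507 and 1234 after 8 Gy over all libraries, vector control first, and an adjusted p of 0.132 there. Among 55 cytosolic ribosomal proteins that fit called 12 lower and 0 higher, beside 7.53% and 2.30% of all genes, Rplp1 (-2.14, adjusted p = 0.000121) and Rplp2 (-1.90, adjusted p = 0.00375) by the most. The means of Rplp1 and Rplp2 were 37792 and 9064 in irradiated vector control and 14127 and 3224 in irradiated Bub1KO. These means show the gap after 8 Gy only, and not the interaction. Of the 1108 lower genes, 553 had a positive response in vector control and a negative one in Bub1KO, both called in 169, and 894 had Bub1KO above vector control untreated and below it after 8 Gy. Of the 339 higher genes, 209 had the reverse order.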
